A study of Mus musculus with 9 samples.

Results

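Chromatin accessibility was described at 39 genes of glycolysis, nutrient uptake, mTOR signalling and linked metabolism in tumor-specific CD8 T cells. The cells came from lymph nodes that drain a melanoma and were taken 4, 8 and 21 days after their transfer. The assay was ATAC-seq, where a transposase cuts open DNA and tags it with sequencing adapters. A region belonged to a gene when it overlapped the gene body or when that gene held the nearest protein-coding gene end within 100 kb. The 9 deposited peak lists were merged into 62963 union regions, and 226 of these belonged to the 39 genes, out of 21627 protein-coding genes.

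All cells were P14 cells, whose transgenic T cell receptor recognises an epitope in the glycoprotein of an arenavirus (LCMV). They carried a GFP reporter for the transcription factor TCF-1. Per the labels, 500000 naive cells were given to C57BL/6 mice that had received B16.F10 melanoma cells expressing that glycoprotein (B16.Gp) 8 days before. Donor cells were sorted as CD45.1+ CD44+ CD8 T cells on day 4, day 8 or day 21 after transfer, with 3 libraries of 50000 cells per day and no other genotype or treatment in the design. The day was read from the titles, since the genotype and time point tags appear exchanged. Separate animals are not stated for the 3 libraries of a day, and the file names of a day share 1 sample number.

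Activated T cells raise glucose import and glycolysis, which supply energy and carbon for growth, and release much of the glucose as lactate. The kinase mTOR works in 2 complexes, of which mTORC1 contains raptor and senses amino acids while mTORC2 contains rictor. mTORC1 raises synthesis of HIF-1 alpha and activates the SREBP factors, and so feeds glycolysis and lipid synthesis. The TSC proteins and AMPK restrain mTORC1. Effector T cells are known for high glycolysis and mTOR activity, and memory T cells for a greater reliance on fatty acid oxidation. An open region shows that DNA is accessible, not that a gene is transcribed.

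The promoters of these genes are shown first because most of them were open on all 3 days. HIF-1 binds the core ACGTG, and MYC binds the E-box CACGTG, which contains that core on both strands. The 5 sequences below are the 250 bases upstream of the start site at promoters whose region ranked higher (Rptor) or lower (the other 4) by fold enrichment on day 8 than on day 4. They are from RefSeq on GRCm38.p6, the assembly of mm10, and run 5′ to 3′ on the gene's own strand. Capitals mark matches, on either strand, to that core, to the E-box or to the AP-1 motif TGANTCA.
Rptor (chr11:119602655-119602904, + strand): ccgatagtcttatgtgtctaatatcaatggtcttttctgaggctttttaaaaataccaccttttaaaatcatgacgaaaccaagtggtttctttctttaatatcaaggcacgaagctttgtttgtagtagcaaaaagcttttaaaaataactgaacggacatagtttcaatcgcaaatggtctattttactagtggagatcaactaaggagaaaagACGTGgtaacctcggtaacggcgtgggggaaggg
Hif1a (chr12:73907617-73907866, + strand): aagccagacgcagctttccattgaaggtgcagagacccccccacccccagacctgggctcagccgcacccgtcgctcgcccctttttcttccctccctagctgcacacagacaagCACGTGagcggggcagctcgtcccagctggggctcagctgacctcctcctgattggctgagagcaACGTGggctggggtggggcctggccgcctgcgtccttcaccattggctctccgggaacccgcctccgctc
Ldha (chr7:46845554-46845803, + strand): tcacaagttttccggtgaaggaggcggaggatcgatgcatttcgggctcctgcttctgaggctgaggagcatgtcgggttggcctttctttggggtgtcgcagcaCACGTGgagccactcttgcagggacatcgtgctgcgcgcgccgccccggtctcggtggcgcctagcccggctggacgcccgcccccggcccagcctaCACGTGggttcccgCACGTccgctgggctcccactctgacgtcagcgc
Slc2a1 (chr4:119108495-119108744, + strand): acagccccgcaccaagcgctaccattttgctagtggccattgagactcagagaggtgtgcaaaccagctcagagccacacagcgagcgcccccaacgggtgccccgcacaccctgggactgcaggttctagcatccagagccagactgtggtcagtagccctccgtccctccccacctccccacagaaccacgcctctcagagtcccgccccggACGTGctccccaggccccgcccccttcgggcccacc
Pkm (chr9:59656326-59656575, + strand): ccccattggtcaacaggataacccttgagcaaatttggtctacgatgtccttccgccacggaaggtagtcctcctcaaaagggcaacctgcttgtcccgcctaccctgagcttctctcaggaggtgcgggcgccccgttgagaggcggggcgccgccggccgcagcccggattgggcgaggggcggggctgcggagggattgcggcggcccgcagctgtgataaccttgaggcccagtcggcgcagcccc

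The Ldha window held 2 E-boxes and a further ACGTG core on the other strand, the Hif1a window held 1 E-box and 1 further core, and the Rptor and Slc2a1 windows held 1 core each. No match lay in the Pkm window shown, while the second Pkm window held a core. A second Ldha window, and the windows at the lower-ranked promoter regions of Pfkp and Pdk1, held no match and are not shown. The window at the lower-ranked promoter region of Pfkfb3 held 1 core and is not shown either. The Rptor window had a GC content of 37.6%, against 66.4% for Hif1a, 67.2% for Ldha, 66.4% for Slc2a1 and 66.4% for Pkm. Among the 35 members with a RefSeq start site, 16 (45.7%) had an ACGTG core in the 250 bases, against 20.2% of 17273 protein-coding genes. The E-box was present in 5 members (14.3%), against 7.7% of all genes, and the AP-1 motif in 1 member (2.86%), against 7.25%. A gene counted when any of its windows matched, over 50 windows of the 35 members and 21044 of the 17273 genes. These shares were not adjusted for windows per gene, GC content or promoter openness, and their difference was not tested. These matches are a description of the letters and not of binding.

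Promoter accessibility of the pathway was in place on day 4 and stayed. A promoter window ran from 250 bases before to 50 bases after a start site, and a union region that overlapped a window of any gene was a promoter region. Of the 35 members with such a window, 29 (82.86%) had it called in all 9 lists, against 43.14% of 17273 genes. These 29 included every member with a window among the glucose and amino acid transporters (Slc2a1, Slc3a2 and Slc38a2), the genes of the later steps of glycolysis (Gapdh, Pgk1, Pgam1, Eno1, Pkm and Ldha), and all 6 genes of the mTOR and AMPK group. The windows of Slc16a3 and Pfkm were called in 7 lists, and those of Tpi1 and Cpt1a in 8. Ppargc1a, which encodes the mitochondrial coactivator PGC-1 alpha, and Acaca, which encodes the first enzyme of fatty acid synthesis, had a window called in 0 lists. At Acaca, however, a region outside that window, at chr11:84128965-84130028, was called in all 9 lists. It spans an end of the gene body, so that the window alone does not show a closed gene start. Slc2a3, Slc7a5, Slc1a5 and Ppargc1b were not in the start-site table.

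The lists themselves differed strongly in length, which bears on every count. The day 4 lists held 19499 to 22250 peaks, the day 8 lists 47513 to 50835 and the day 21 lists 46492 to 51671. Over the 15109 regions present in every list, the median fold enrichment was 5.73 on day 4, 8.98 on day 8 and 8.78 on day 21 (means of 3 lists). Fold enrichment is the height of a peak over its library's own local background. Lists of the same day differed by less than sampling noise in peak height. The chi-square per region was 0.417 to 0.444 within days, against 0.966 to 1.17 between days. A peak's top is a maximum, which by itself lowers such a chi-square. All p-values below therefore describe these lists and may measure technical spread alone.

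Among CD8 T cell genes, the promoter windows of Cd8a, Cd3e, Cd3g, Cd5 and Lck were called in all 9 lists and that of Cd3d in 4. Of 68 regions of the CD8 T cell genes, 19 to 25 were called per day 4 list, 49 to 52 per day 8 list and 47 to 55 per day 21 list. Called regions of all genes together numbered 17979 to 20708 per day 4 list, 45564 to 49043 per day 8 list and 44517 to 50090 per day 21 list. Of the B cell genes, Pax5 with 6 regions had 1 call summed over the 3 day 4 lists, 15 over the day 8 lists and 15 over the day 21 lists. Ebf1, also with 6 regions, had 0, 12 and 10 calls on the same days. The windows of Pax5, Ebf1 and Cd79a were called in 0 lists, and Ms4a1 had no region. Of 33 regions of endothelial and stromal genes, 2 to 4 were called per day 4 list, 20 to 24 per day 8 list and 20 to 22 per day 21 list. Of 19 regions of myeloid and dendritic cell genes, 4 were called per day 4 list, 11 to 15 per day 8 list and 12 to 16 per day 21 list. Of 13 regions of melanoma genes, 4 to 6 were called per day 4 list, 8 to 9 per day 8 list and 10 to 12 per day 21 list. Among the melanoma genes the promoter window of Mitf and all 3 regions of Pmel were called in all 9 lists, and Tyr, Tyrp1 and Sox10 had no region. Of 10 regions of NK cell genes, 4 to 6 were called per day 4 list and 7 to 8 per day 8 list. For 8 regions of CD4 and regulatory T cell genes the counts were 1 to 2 and 7 to 8. For 2 regions of erythroid genes they were 1 and 1 to 2. Summed by group, calls of most of these markers rose by day 8 as those of members did, though not at every gene, as at Pmel. The part of these markers in the gains below was not tested. In bulk libraries, a changed share of cells and a change within each cell cannot be told apart.

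More member regions were called on day 8 than on day 4 at nearly every locus. Day 8 lists held 170, 169 and 183 of the 226 member regions, and day 4 lists held 81, 85 and 99. Day 21 lists held 159, 162 and 174. As a share of all called regions, member regions made up 0.4392 to 0.4781% of day 4 lists, 0.3665 to 0.3731% of day 8 lists and 0.3474 to 0.3639% of day 21 lists. The mean number of called regions was higher on day 8 than on day 4 for 36 of the 39 genes and equal for 3, which were Gpi1, Aldoa and Mtor. For 22 genes every day 8 list exceeded every day 4 list. Neither count was taken over all genes, and every day 8 list was longer than every day 4 list. In a test without division by list length, 22 of 32 members were higher on day 8, against 83.1% of all 7830 genes tested. Rptor, the gene of raptor, had 11, 12 and 15 of its 19 regions called on day 8, against 3, 5 and 4 on day 4. Slc2a1, the gene of the glucose transporter GLUT1, had 8, 7 and 7 of 9 on day 8, against 3, 3 and 3 on day 4. Ppargc1a had 6, 9 and 9 of 9 on day 8, against 2, 1 and 3 on day 4. These 3 genes are among those where every day 8 list exceeded every day 4 list.

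**Figure D1:**
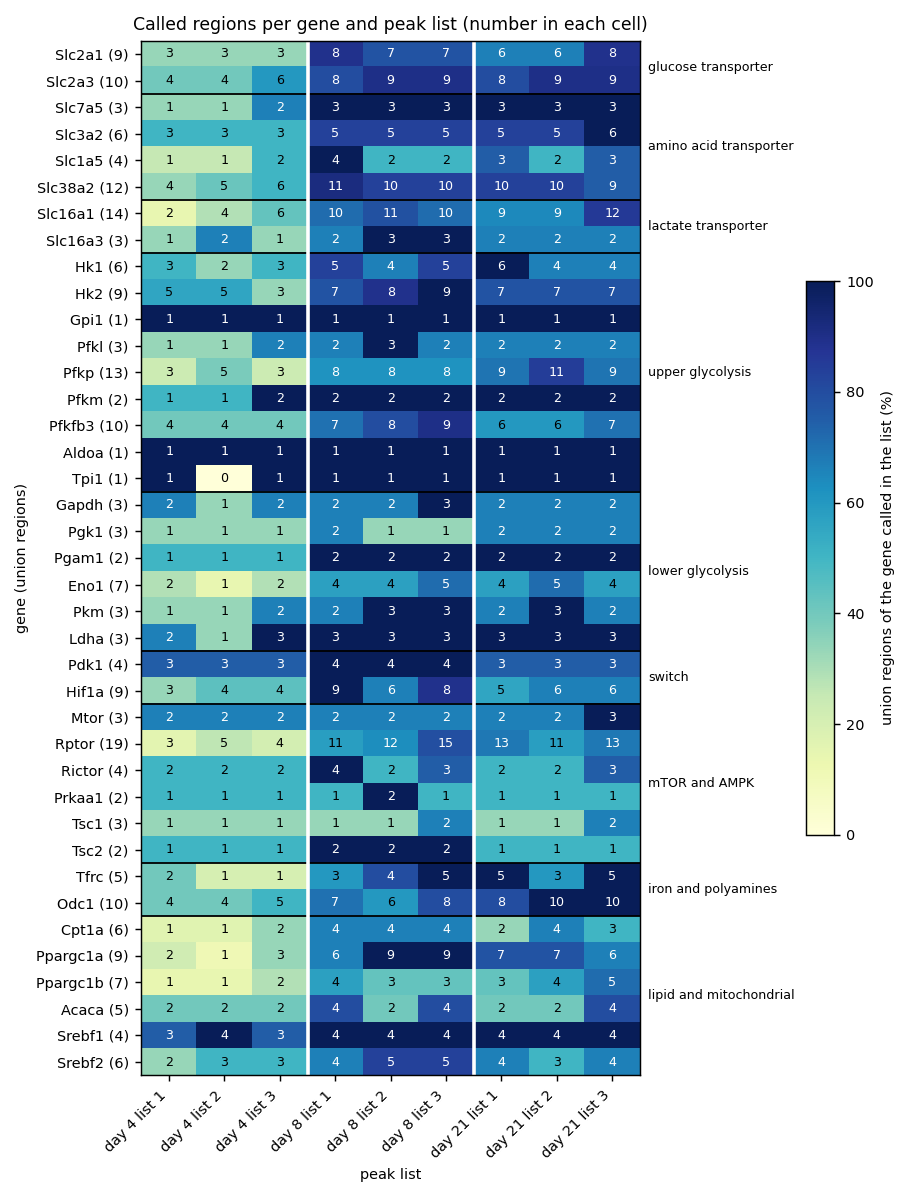
Number of union regions called for each of the 39 genes (rows, with the gene's union regions in brackets, grouped by role) in each of the 9 peak lists (columns). Colour gives the percent of the gene's regions called, and day 8 lists hold 169 to 183 member regions in all, against 81 to 99 in day 4 lists.

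Gained regions were those called in 3 of 3 later-day lists but in 0 of 3 earlier-day lists, and lost regions the opposite. By day 8, 38 of 226 member regions (16.81%) were gained since day 4, below the 25.7% of all 62963 regions, and 0 were lost, against 0.00953% of all regions. The gains lay in 21 genes. Their 114 peaks in day 8 lists were low, with a median fold enrichment of 4.61 (range 2.75 to 9.46), while the 68 member regions called in all 9 lists had a median of 8.06 in the same lists. When each list was reduced to its 19499 strongest peaks, the length of the shortest list, 3 member regions were gained and 1 was lost. The share of all regions was not taken at that length, so these counts cannot be set against it.

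Gains lay away from promoters, whose member regions were already called on day 4. Of the 38 promoter regions among the 226, 0 were gained, against 10.01% of all promoter regions. Of the 38, 34 were called in all 9 lists, and those of Slc16a3, Pfkm, Tpi1 and Cpt1a in 7 or 8. Each was thus called in at least 1 day 4 list and could not count as gained. In gene bodies 24 of 117 member regions (20.51%) were gained, against 27.9% of all such regions. Outside genes 14 of 71 (19.72%) were gained, against 29.29%.

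Among nutrient transporters, Slc2a1 gained 4 regions and Slc2a3, the gene of GLUT3, gained 2. The Slc2a1 gains lay at chr4:119068901-119069280, 39.5 kb outside the gene, at chr4:119116345-119116680 and chr4:119125924-119126352 inside it, and at chr4:119142260-119142657, 4.93 kb outside it. Slc38a2, a carrier of small neutral amino acids, gained 4 regions, all outside the gene. Slc3a2, which encodes the heavy chain that pairs with the leucine carrier of Slc7a5, gained 2, Slc7a5 gained 1 and the glutamine carrier gene Slc1a5 gained 0. Slc16a1, the gene of the lactate carrier MCT1, gained 2, and Slc16a3, the gene of MCT4, gained 0.

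Glycolytic enzyme genes gained 8 regions in all. Hexokinase 2 (Hk2) and Pfkfb3, whose product makes the activator of phosphofructokinase, gained 2 each, and Hk1, Pfkp, Pgam1 and Eno1 gained 1 each. The other 9 enzyme genes, among them Gapdh, Pkm and Ldha, gained 0. Of the genes that switch pyruvate away from mitochondria, Hif1a gained 2 regions and Pdk1, the pyruvate dehydrogenase kinase gene, gained 1.

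Rptor gained 5 regions, more than any other member, all inside its body, and Tsc2 gained 1. Mtor, Rictor, Prkaa1 and Tsc1 gained 0. The transferrin receptor gene Tfrc and Odc1, the gene of the first enzyme of polyamine synthesis, gained 1 each. Ppargc1a gained 2, and Cpt1a, which admits fatty acids to mitochondria, and Srebf2, the regulator of sterol synthesis, gained 1 each. Ppargc1b, Acaca and Srebf1 gained 0.

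**Figure D2:**
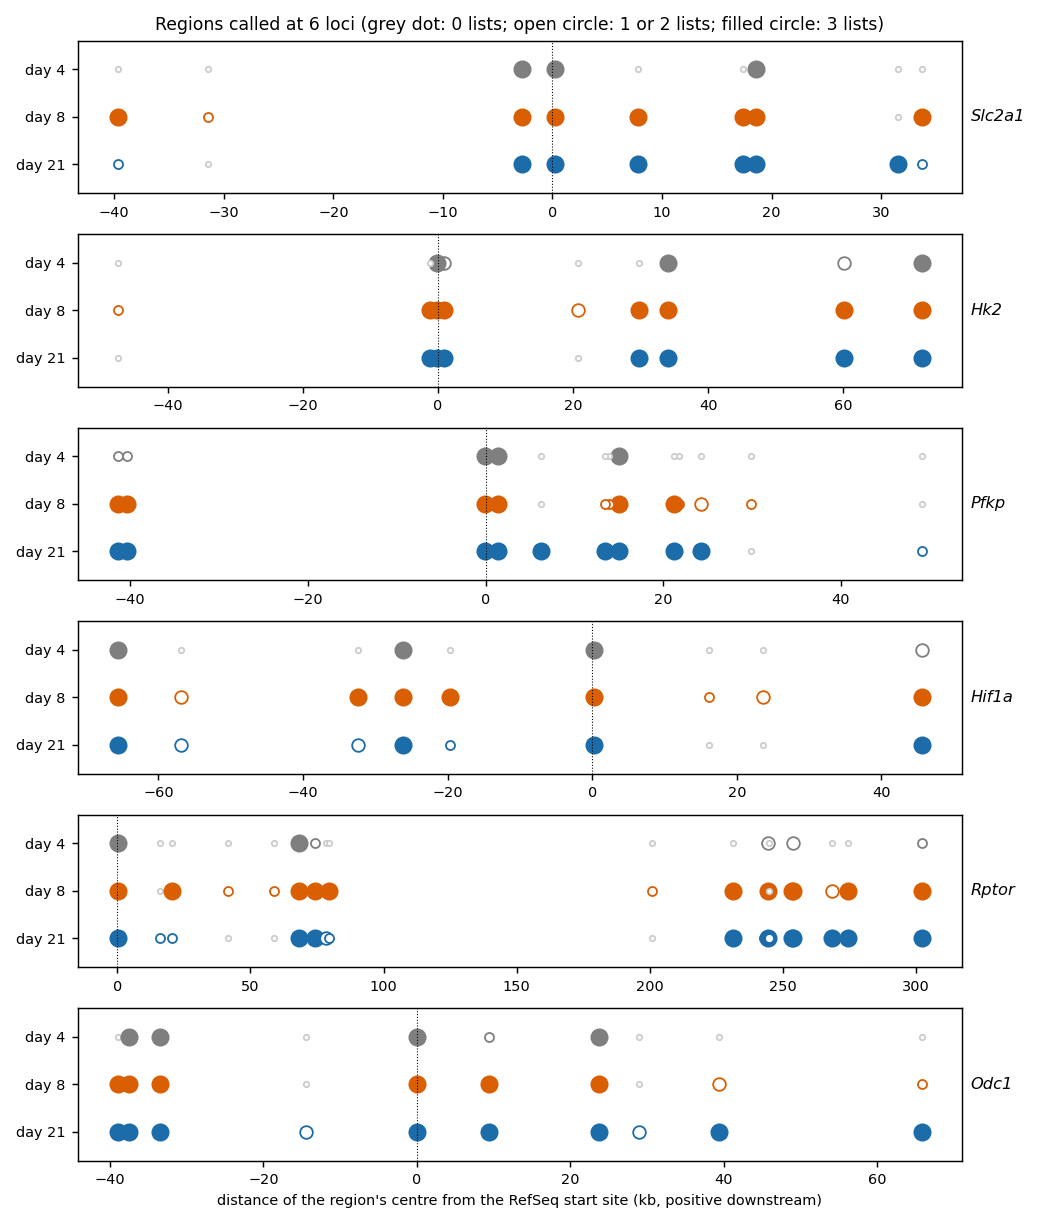
Regions of 6 members by distance of its centre from the RefSeq start site (kb, positive downstream), with a row of points per day. Filled circles were called in 3 of 3 lists, open circles in 1 or 2 and small grey circles in 0, and the promoter region at 0 kb is filled on all 3 days at each locus.

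Fewer of these gains were found again on day 21 than of gains elsewhere, a difference that was not tested. Of the 38 member regions gained by day 8, 22 (57.89%) were called in all 3 day 21 lists, while 74.63% of the 16206 regions gained in all were. The other 16 were called in 2 day 21 lists (3 regions), in 1 (8 regions) or in 0 (5 regions). Between day 21 and day 4 directly, 33 member regions (14.6%) were gained, against 25.27% of all regions, and 0 were lost.

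The number of called regions per gene was tested relative to the length of each list, in the 32 members with at least 3 union regions (limma across 7830 genes, adjusted by Benjamini-Hochberg, threshold 0.05). On this scale 22 of the 32 could not come out higher on day 8 than on day 4, since their difference stayed below 0 even with every region called in every day 8 list. With that limit, 0 members were higher, against 15.6% of all genes tested, and 15 were lower, against 24.5%. The median log2 difference was -0.49 over members and -0.14 over all genes. The 15 lower genes were Slc2a3, Slc3a2, Hk1, Pfkfb3, Gapdh, Pgk1, Ldha, Pdk1, Mtor, Rictor, Tsc1, Odc1, Acaca, Srebf1 and Srebf2. None of them lost a region, and 14 of the 15 had more regions called on day 8 than on day 4. All 15 were among the 22 genes that could not come out higher. Without the second day 8 list 9 members were lower, against 1453 of 7830 genes. Without division by list length, 22 of the 32 were higher, against 83.1% of all genes, and 0 lower. With lists of equal length 18 members could be tested and 0 were called in either direction, against 0.127% higher and 0.317% lower of 3158 genes.

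Height was then compared at the 68 member regions called in all 9 lists, which belong to 36 genes. Each list's fold enrichments were ranked over the 15109 regions called in all 9 lists. A region's place is given as a percentile, 100 being the highest, and tested as a normal score of the rank (limma, adjusted over 15109 regions). On day 8 relative to day 4, 9 of the 68 (13.24%) were higher, against 13.0% of all regions, and 14 (20.59%) were lower, against 15.7%. The median difference in score was -0.07 over member regions and -0.04 over all.

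The result for the lower regions depended on the measure of height. A peak list also gives −log10 p, and fold enrichment and p together fix the whole number of tags stacked at the summit, called the pileup here. Ranked by −log10 p, 6 member regions were higher on day 8, against 5.94% of all regions, and 0 were lower, against 5.96%. Ranked by pileup, an alternative chosen after seeing the data, 8 were higher, against 7.14%, and 0 were lower, against 7.53%. Of the 9 regions higher by fold enrichment, 5 were higher by all 3 measures, which is 5 of 68 against 3.73% of all regions. Of the 14 lower ones, 0 were lower by another measure, while 2.90% of all regions were lower by all 3.

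**Figure D3:**
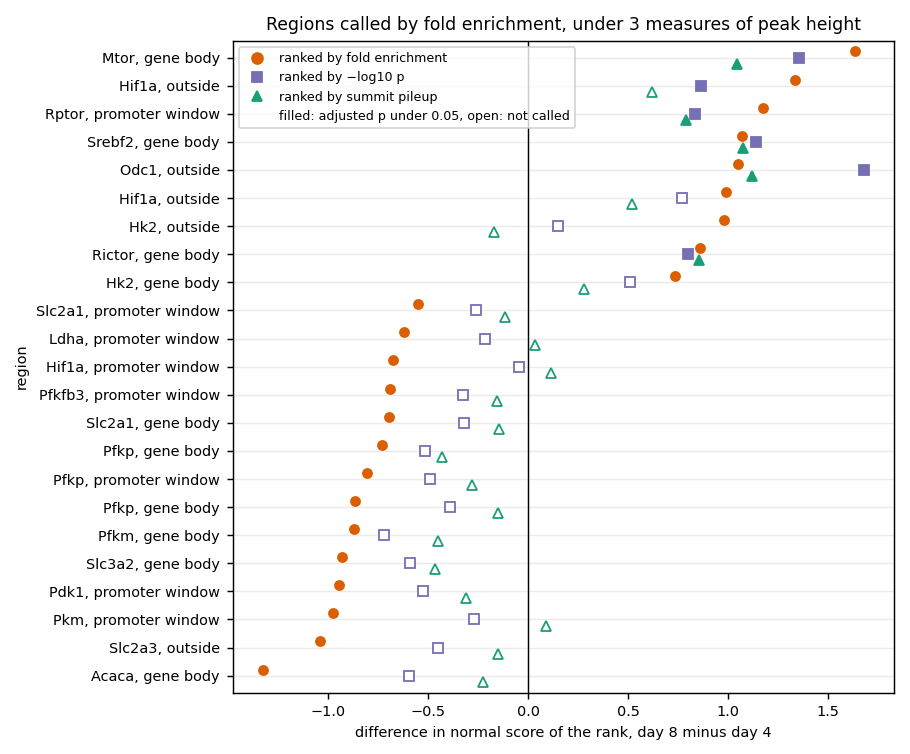
Difference in the normal score of the rank, day 8 minus day 4, for the 23 member regions called by fold enrichment (rows), when regions are ranked by fold enrichment (circles), −log10 p (squares) or summit pileup (triangles). Filled symbols have an adjusted p under 0.05, and 5 of the 9 regions in the upper block are filled for all 3 measures while no region of the lower block is filled for more than 1.

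The mTOR group held 3 of the 5 regions that rose in rank by all 3 measures, in the genes of the kinase and of both its scaffold proteins. Inside Mtor, at chr4:148509226-148510095 and 61.1 kb downstream of the start site, the pileup was 44, 44 and 47 tags on day 8, against 15, 14 and 18 on day 4. This region stood at percentile 55.5, 54.1 and 64.8 on day 8, against 8.48, 4.33 and 11.8 on day 4, with no overlap between the days. The score difference was 1.63 ± 0.21 SE (adjusted p = 0.000266, limma), and day 21 lists stood at 53.8, 46.0 and 38.8. The Mtor promoter region was not called in either direction.

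The promoter region of Rptor, at chr11:119602742-119603562, was the only promoter region among the members to rank higher by fold enrichment. Its pileup was 55, 68 and 68 tags on day 8, against 19, 20 and 28 on day 4. Its percentile was 86.4, 94.9 and 87.1 on day 8, against 43.1, 51.2 and 68.6 on day 4 (1.18 ± 0.26 SE, adjusted p = 0.00523, limma). The days did not overlap, and day 21 lists ran from 65.7 to 90.5. Of all promoter regions called in all 9 lists, 8.18% were higher on day 8.

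Inside Rictor, the gene of the mTORC2 scaffold, the region at chr15:6726285-6726878 lay 18.2 kb downstream of the start site. Its pileup was 58, 56 and 66 tags on day 8, against 20, 17 and 25 on day 4, and its percentile 80.2, 71.8 and 73.5 on day 8, against 48.8, 26.5 and 55.2 on day 4. This difference of 0.86 ± 0.23 SE (adjusted p = 0.0115, limma) was without overlap. The remaining 6 regions of the mTOR and AMPK group, at Mtor, Rptor, Rictor, Prkaa1, Tsc1 and Tsc2, were not called by fold enrichment. Ranked by pileup, the region at the shared promoter of Tsc2 and Nthl1 was higher too, and it cannot be given to either gene, with 74, 77 and 75 tags on day 8, against 27, 26 and 29 on day 4 (0.69, adjusted p = 0.0286, limma).

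A region inside Srebf2, at chr15:82186722-82187570, held 46, 59 and 54 tags on day 8, against 18, 15 and 19 on day 4. It stood at percentile 34.1, 65.5 and 41.8 on day 8, against 28.0, 4.65 and 12.3 on day 4 (1.07 ± 0.28 SE, adjusted p = 0.0107, limma). The fold-enrichment call was lost without the second day 8 list. Upstream of Odc1, 37.2 kb from the gene, the region at chr12:17507092-17507613 held 62, 60 and 69 tags on day 8, against 15, 22 and 24 on day 4. Both sets of tags were among the lower fold enrichments of their lists, with percentiles of 14.7, 11.3 and 16.6 on day 8, against 0.122, 10.4 and 1.86 on day 4 (1.05 ± 0.33 SE, adjusted p = 0.0278, limma). That call was lost when day 4 list 1 or any 1 of the day 8 lists was left out. Neither gene's days overlapped.

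**Figure D4:**
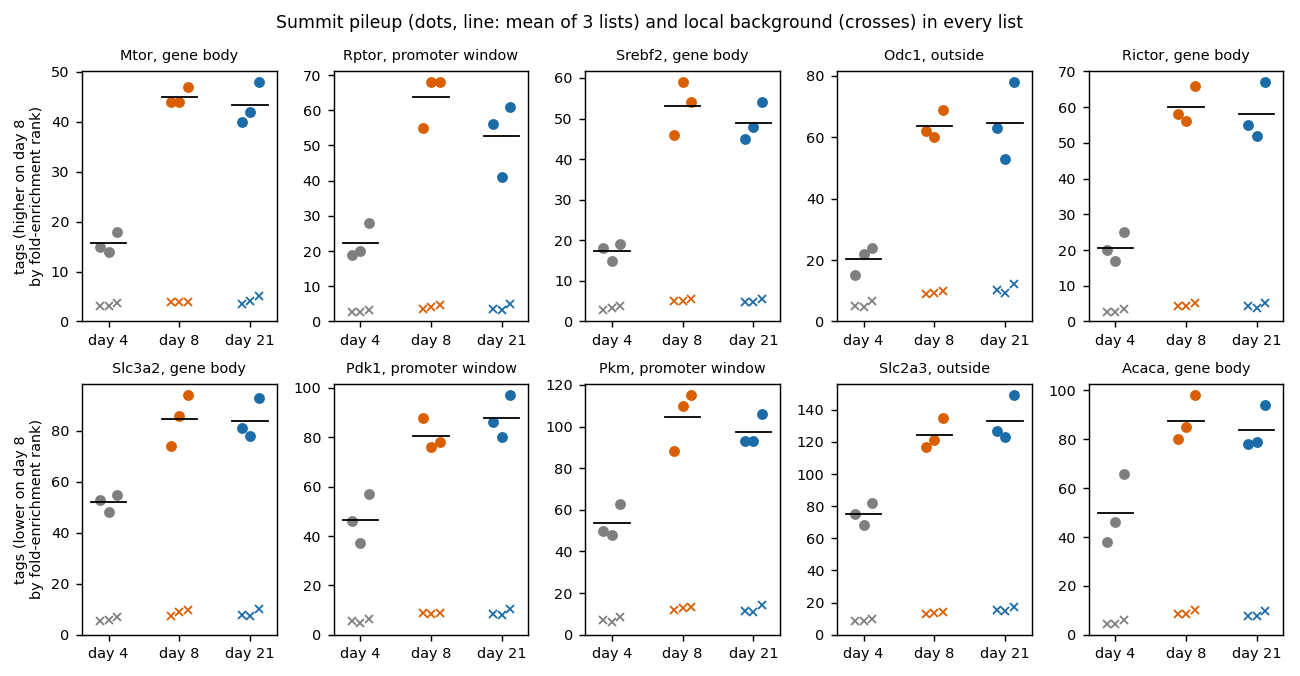
Summit pileup (dots, with a line at the mean of 3 lists) and local background (crosses), in tags, in each list of each day. The upper row shows the 5 member regions ranked higher on day 8 than on day 4 by all 3 measures, and the lower row the 5 with the most negative fold-enrichment score, where pileups are also larger on day 8 than on day 4.

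At Hif1a the promoter and the upstream regions went in opposite directions by fold enrichment. The upstream region at chr12:73881336-73882118, 19.2 kb outside the gene, stood at percentile 74.8, 56.4 and 46.6 on day 8, against 17.6, 6.72 and 20.1 on day 4 (1.34 ± 0.27 SE, adjusted p = 0.0027, limma). Day 21 lists stood at 72.1, 69.2 and 88.6, a difference from day 8 that was not called. The same region was higher by −log10 p as well (0.86, adjusted p = 0.044, limma). The more distant region at chr12:73841798-73842775, 58.6 kb outside, stood at 72.0, 70.4 and 78.9 on day 8, against 60.7, 21.5 and 29.8 on day 4 (0.99 ± 0.28 SE, adjusted p = 0.0177, limma). By pileup neither was called, with adjusted p = 0.0963 for the nearer and 0.109 for the farther region (limma). The Hif1a promoter region stood at 66.6, 70.1 and 69.4 on day 8, against 79.0, 92.0 and 89.9 on day 4 (-0.68 ± 0.21 SE, adjusted p = 0.0235, limma), and by pileup its difference was 0.11, adjusted p = 0.681. This promoter call was lost under 7 of 14 alternatives, among them leaving out any 1 of the day 8 lists, the farther upstream call under 4 and the nearer one under 1.

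Hk2 had 2 regions that ranked higher by fold enrichment and by no other measure. The one at chr6:82702637-82703089, 21.9 kb outside the gene, stood at 91.8, 87.2 and 89.8 on day 8, against 60.9, 57.3 and 65.4 on day 4 (0.98 ± 0.21 SE, adjusted p = 0.00349, limma). Ranked by pileup its difference was -0.17. On day 21 it stood at 52.4, 72.6 and 61.2, and by pileup rank it was lower on day 21 than on day 8, with 34, 37 and 42 tags on day 21, against 52, 46 and 50 on day 8 (-0.81, adjusted p = 0.0125, limma). The call at chr6:82740109-82740711, inside the gene, was lost under 11 of 14 alternatives.

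The 14 regions that ranked lower by fold enrichment, and by no other measure, were the promoter regions of Slc2a1, Pfkp, Pfkfb3, Pkm, Ldha, Pdk1 and Hif1a, further regions of Slc2a1, Pfkp (2), Slc3a2, Pfkm and Acaca, and a region 7.88 kb outside Slc2a3. At Pkm, whose product makes pyruvate, the promoter region at chr9:59655898-59656804 stood at percentile 20.9, 36.6 and 35.3 on day 8, against 63.7, 70.9 and 69.1 on day 4 (-0.98 ± 0.20 SE, adjusted p = 0.0035, limma). Its pileup was 88, 110 and 115 tags on day 8, against 50, 48 and 63 on day 4. Pileups are not scaled to read totals, and over all 15109 regions the median ratio of day 8 to day 4 pileup was 2.01. By pileup rank the difference at the Pkm promoter region was 0.09 (adjusted p = 0.769, limma).

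The other lower regions also held more tags on day 8, as did the median of all 15109 regions. The region inside Acaca, at chr11:84179094-84180558, stood at 44.9, 48.3 and 49.4 on day 8, against 76.5, 90.8 and 95.9 on day 4 (-1.33 ± 0.24 SE, adjusted p = 0.00159, limma), with 80, 85 and 98 tags on day 8, against 38, 46 and 66 on day 4. The promoter region of Pdk1 stood at 52.1, 37.9 and 35.2 on day 8, against 78.4, 65.9 and 84.1 on day 4, with 88, 76 and 78 tags on day 8, against 46, 37 and 57 on day 4. At the promoter region of Ldha, a lactate dehydrogenase gene, the pileup was 59, 84 and 78 tags on day 8, against 34, 33 and 39 on day 4, and the fold-enrichment call (-0.62, adjusted p = 0.0482, limma) was lost under 12 of 14 alternatives. At the Slc2a1 promoter region the call was lost under 12 of 15. The Pfkm region also overlapped the promoter window of Senp1, so that it cannot be given to either gene.

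Pileup and local background were both larger on day 8 than on day 4 at these regions, but by different ratios. Over the 14 lower regions the ratio of day 8 to day 4 pileup had a median of 1.77 (range 1.63 to 2.08), and that of local background 1.55 (range 1.36 to 1.8). Over the 9 higher regions the medians were 2.85 for pileup and 1.27 for background, and over all 15109 regions 2.01 and 1.39. Next to all regions, the 14 lower ones thus had a smaller pileup ratio and a larger background ratio, and the 9 higher ones the opposite. The median pileup of the 14 lower regions was 85.3 tags on day 8, against 49.7 on day 4, and that of all 15109 regions 65.7 tags on day 8, against 31.7 on day 4. The part of the background in the fold-enrichment calls was not tested beyond these values. The count of lower regions fell to 9 without the first or without the third day 8 list. Over all 15109 regions it was then 1615 and 1453, against 2368 with all lists.

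**Figure D5:**
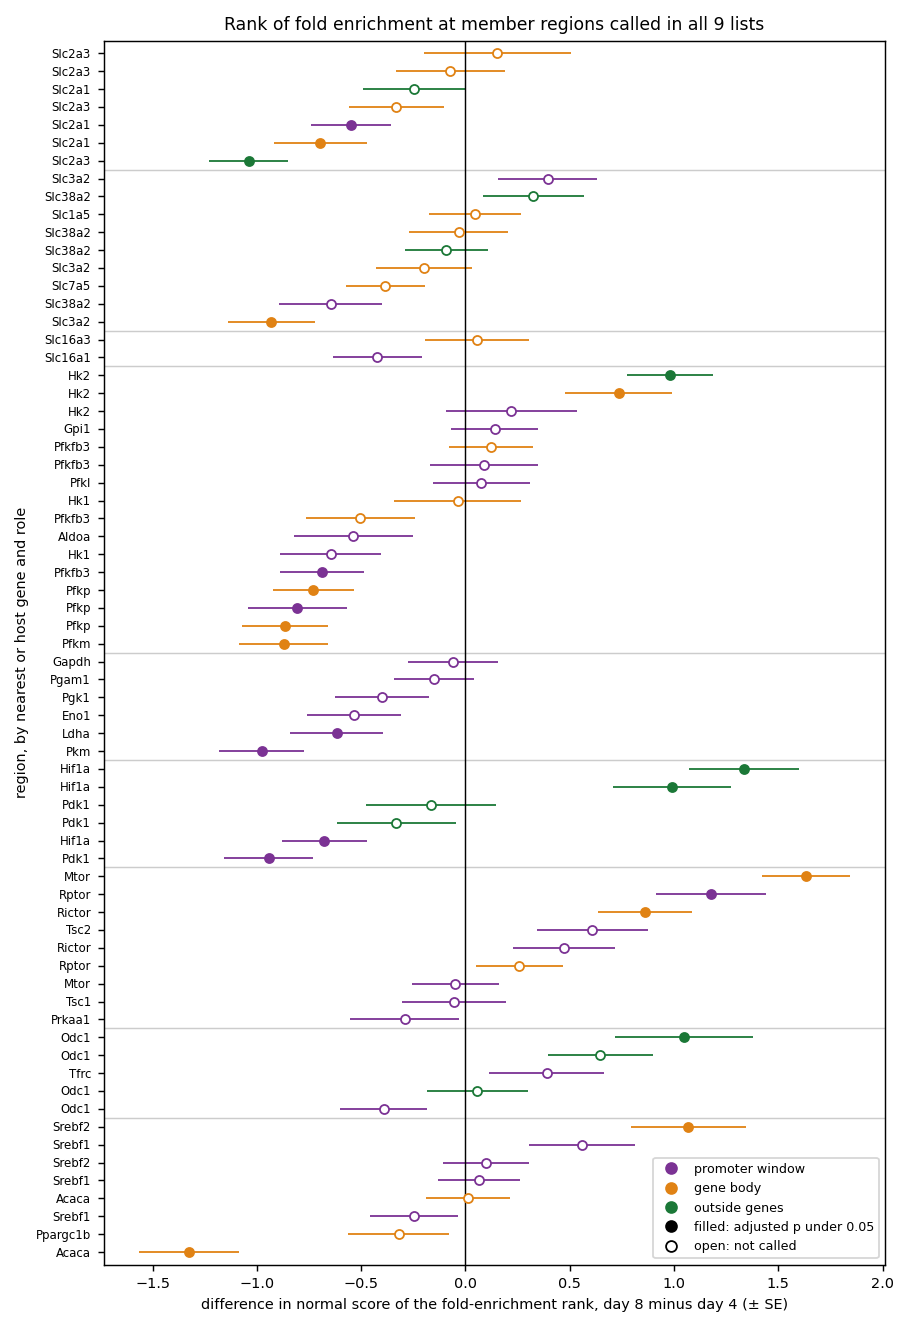
Difference in normal score of the fold-enrichment rank, day 8 minus day 4 (± SE, 3 lists per day), for the 68 member regions called in all 9 lists, grouped by role in the same order as in the plot of called regions. Colour shows position, filled points have an adjusted p under 0.05, and the 3 filled points of the mTOR and AMPK group (Mtor, Rptor and Rictor) all lie right of 0.

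By role, the fold-enrichment calls were divided as follows, with 13.0% of all regions higher and 15.7% lower. Differences between roles were not tested. The mTOR and AMPK group had 3 of 9 regions higher and 0 lower, and the iron and polyamine genes 1 of 5 higher and 0 lower. The glucose transporters had 0 of 7 higher and 3 lower, and the lower glycolytic enzymes 0 of 6 higher and 2 lower. The upper glycolytic enzymes had 2 of 16 higher and 5 lower, the switch genes Pdk1 and Hif1a 2 of 6 higher and 2 lower, and the lipid and mitochondrial genes 1 of 8 in each direction. Amino acid transporters had 0 of 9 higher and 1 lower, and lactate transporters 0 of 2 in either direction. By position, promoter regions, with the one shared by Pfkm and Senp1, had 1 of 34 higher (2.941%) and 8 lower (23.53%), against 8.182% and 19.35% of all promoter regions. Regions outside genes had 4 of 12 higher and 1 lower, against 20.15% and 11.92% of all such regions.

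Few member regions were gained or lost between day 21 and day 8. Of the 226 member regions 2 were gained by day 21, against 1.02% of all regions, and 5 were lost, against 1.09%. The gained ones were called in 3 of 3 day 21 lists and 0 of 3 lists on both other days. They lay at chr4:119140209-119140472, 2.88 kb outside Slc2a1, and at chr13:6642411-6642694, inside Pfkp, the platelet-type phosphofructokinase gene.

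The 5 lost regions were called on day 8 alone, in 3 of 3 day 8 lists and 0 of 3 of the others. They lay outside Slc38a2 (chr15:96736752-96737024) and Pfkfb3 (chr2:11567824-11568106), and inside Pdk1 (chr2:71898483-71898798), Tsc2 (chr17:24628726-24629016) and Srebf2 (chr15:82165358-82165682). These small counts moved with single lists. Without the first day 21 list 6 were gained and 8 lost, without the third day 21 list 9 were lost, without the first day 8 list 10 were lost, and without the third day 8 list 4 were gained.

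By called regions per gene, 0 members were higher and 0 lower on day 21 than on day 8, as were 0 of the 7830 genes in either direction (limma). An unadjusted p under 0.05 was found for 4 of 32 members and 709 of 7830 genes. Odc1 had the smallest adjusted p, 0.334 (limma), with 8, 10 and 10 of its 10 regions called on day 21, against 7, 6 and 8 on day 8. By fold-enrichment rank 0 of 68 member regions were higher, against 0.0199% of all regions, and 0 lower, against 0 of all. The unadjusted p was under 0.05 for 6 of 68 member regions and 1527 of 15109 regions (limma).

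Ranked by −log10 p, 0 member regions were called either way, against 0.768% higher and 0.351% lower of all regions. Ranked by pileup, 2 were higher, against 7.18%, and 5 were lower, against 6.20%. The higher ones were the Pfkp region at chr13:6633359-6634122, with 101, 94 and 114 tags on day 21, against 72, 77 and 96 on day 8, and a region outside Pdk1 at chr2:71866414-71867090, with 62, 61 and 75 tags on day 21, against 50, 46 and 53 on day 8. The lower ones were the promoter regions of Pgam1, Srebf1 and Srebf2, a region outside Slc38a2 and the outer Hk2 region above. The Srebf2 promoter region held 85, 81 and 101 tags on day 21, against 104, 106 and 110 on day 8. Only a ranking by pileup gave these 7 calls.

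A list of 79 other genes of the same pathways was counted beside the members. Their regions were called 112 to 129 times per day 4 list, 224 to 242 times per day 8 list and 216 to 234 times per day 21 list. Of their 282 regions, 68 were gained by day 8, against 38 of 226 for the members and 25.7% of all regions. The promoter window was called in all 9 lists in 46 of 63 of these genes, against 29 of 35 members. Relative to list length, 4 of 42 were higher on day 8 than on day 4, against 15.6% of all genes, among them Slc2a2, the glucose transporter gene of liver and pancreas, with 3 of 3 regions in every day 8 list and 0 in every day 4 list (adjusted p = 0.00135, limma), and Rragc, which encodes a small GTPase that brings mTORC1 to lysosomes (0.64, adjusted p = 0.0126, limma). In that group 14 were lower, against 24.5% of all genes. By fold-enrichment rank 9 of 97 regions were higher, against 13.0% of all regions, and 20 lower, against 15.7%. A difference between the lists of genes was not tested.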

How the data were processed

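Per the submitters' processing notes, reads were processed on mm10 with MACS2, Picard, deepTools 2.0 and BWA 0.7.15. For settings, read filters and any Tn5 shift, nothing is given in the sources here. The deposited narrowPeak lists, 1 per library, so that peaks were called per sample, give each peak a score, a fold enrichment ratio, −log10 p and q values, and its summit's offset as another column. The authors' score and q were used only to filter or describe, and no peak's q exceeded 0.05. Read totals are unknown.

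Peaks on chromosomes 1 to 19 and X (353295) were merged where they shared at least 1 base. Coordinates are 1-based on mm10. Genes came from RefSeq GRCm38.p6. Members and lists were chosen with earlier results of these data known. All members are named, and regions by the test. Gene counts were fitted as log2((called + 0.5) / relative list total) in R 4.3.3 with limma 3.58.1 (robust, with trend), the spread floored at that of 1 region called with a probability of 0.5, and ranks with limma (robust), with 1 term per day over 9 lists (6 residual degrees of freedom). Pileups were recovered under the Poisson formula of MACS2 within 0.001 in −log10 p for at least 99.995% of peaks. Scripts were tested on simulated data. Other steps used matplotlib 3.10.9, scipy 1.17.1, numpy 2.4.6, pandas 2.3.3 and Python 3.11.15. Alternatives are listed at the end.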

Additional observations from a re-analysis of the deposited data

How the results depend on the processing

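Regions gained by day 8 numbered 38, but 64 when 2 of 3 lists sufficed and 3 at equal list length. Regions lost by day 8 numbered 0, but 1 at equal list length and 3 with windows around summits. Between day 21 and day 8, 7 were gained and 12 lost when 2 of 3 lists sufficed, and 0 were lost at equal list length. Leaving out 1 list gave 2 to 6 gained and 5 to 10 lost. Shares of all regions gained or lost were not taken under these alternatives.

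For genes on day 8 relative to day 4, leaving out 1 list gave 0 to 1 of 32 members higher and 9 to 15 lower. Over all 7830 genes it gave 813 to 1267 higher and 1395 to 1812 lower. With at least 6 regions per gene, 6 of 17 members were lower, against 617 of 3144 genes. With a pseudocount of 1, 23 of 32 were lower, against 3149 of 7830. At equal list length 0 of 18 were lower, against 10 of 3158. Without division by list length 0 of 32 were lower, against 0 of 7830, and 22 were higher, against 6510. In that last setting the log2 differences of lower genes turned positive, at 0.85 for Slc2a3, 0.65 for Slc3a2, 0.72 for Hk1, 0.91 for Pfkfb3, 0.41 for Gapdh, 0.25 for Pgk1, 0.57 for Ldha, 0.36 for Pdk1, 0.44 for Rictor, 0.25 for Tsc1, 0.63 for Odc1, 0.57 for Acaca, 0.24 for Srebf1 and 0.72 for Srebf2. At equal list length they turned positive for Slc2a3 (0.27), Ldha (0.57), Odc1 (0.024) and Srebf1 (0.24). Only equal list length removes the difference in length. Without division the median log2 difference over all genes was 1.17.

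For ranks on day 8 relative to day 4, leaving out 1 list gave 6 to 9 of 68 member regions higher and 9 to 13 lower. Over all 15109 regions it gave 1311 to 1906 higher and 1453 to 2247 lower. Within 1 kb of a gene end, where 32 member regions remain, 2 were higher and 6 lower, against 1014 and 1201 of 8000 regions. By −log10 p or by pileup 0 were lower. By pileup, an alternative added after seeing the data, the differences turned for the outer Hk2 region (-0.17) and the promoter regions of Pkm (0.090), Ldha (0.034) and Hif1a (0.11), and between day 21 and day 8 it gave 2 higher and 5 lower. The cause was not tested. The calls at Mtor, Rptor and Rictor regions held under every alternative run.

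Replicate numbers were not used to pair the lists. Same-numbered lists deviated with correlations of -0.0297 to 0.0609, and lists with different numbers with -0.0409 to 0.0215. Between day 8 and day 21, same-numbered lists had 0.013 to 0.0609, and the others -0.0409 to 0.0096. These small values do not settle whether the lists are paired. A replicate block gave 12 lower member genes, against 1616 of 7830 genes. It gave 8 higher and 13 lower member regions, against 1955 and 2230 of 15109 regions. Lists hold only peaks over a threshold, so that a region not called may still be open below it.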
